A study of Mus musculus with 4 samples.

Results

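Collagen genes were followed on mouse whole-genome expression arrays (Affymetrix Mouse 430 2.0) in dorsal skin at postnatal day 16. The members were every probe set whose single gene symbol in the platform annotation was Col, a number, the letter a and a number, with no filter on signal. This gave 82 probe sets of 42 genes among the 45101 probe sets of the table. Of these, 21 probe sets of 11 genes were fibrillar, 17 probe sets of 10 genes belonged to the basement membrane, and 44 probe sets of 21 genes belonged to other classes. Col6a6, Col21a1 and Col28a1 were not analysed here. The wild type group held skin of 2 animals. The bitransgenic group held skin of 2 animals that overexpressed deltaNp63alpha, the p63 isoform without the amino-terminal transactivation domain and the main p63 form of basal keratinocytes. Each animal gave 1 array, called replicate 1 or 2 as in the labels (n = 2 per group throughout). The sources used here do not give the promoter of the transgene, the strain, the sex or any inducing treatment.

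Collagens are trimers of chains whose helical part repeats glycine at a fixed spacing. Fibrillar collagens of types I, III and V, made by dermal fibroblasts, form the striated fibrils that give skin its tensile strength. Type IV collagen makes the sheet of the basement membrane under epidermis, hair follicles, vessels, muscle fibres and fat cells. Types VII and XVII are made by keratinocytes and fasten the epidermis to the dermis. Fibril-associated collagens such as types XII, XIV and XVI decorate the surface of fibrils, and type VI forms beaded microfilaments between them.

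The gene of the transgene was read first. On the Trp63 probe set with the largest difference, wild type replicates 1 and 2 had signals of 205.7 and 838, against 10325 and 15247 with the transgene. Another was also far higher, with 161.3 and 473.4 against 4644 and 9920. A further probe set, the brightest in wild type, read 4968 and 5812 against 5176 and 5302, so the groups overlapped there. They also overlapped on the last one, with 1891 and 506.6 against 1572 and 378.7. Limma was run on the 45037 probe sets left after removing controls. In the order given, its adjusted p-values were 0.0613, 0.0591, 0.983 and 0.943. Precision is limited by having 2 arrays per genotype. The wild type arrays were no closer to each other (r = 0.918) than the closest pair across genotypes (r = 0.920). The 3' to 5' signal ratio of Gapdh was 1.55 in wild type replicate 1 and between 0.931 and 1.02 on the other 3 arrays. That of beta-actin did not set this array apart, at 1.66 and 1.53 for the wild type arrays against 1.70 and 1.54 for the bitransgenic ones. In whole skin, fewer cells of a type and less RNA per cell cannot be told apart.

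Most collagen probe sets had a lower mean in bitransgenic skin, but none passed the test of all probe sets. The means of 62 probe sets were lower and those of 20 higher, a share of 75.6% lower against 48.6% of all probe sets. With limma and Benjamini-Hochberg adjustment, 0 of 82 were called in either direction at an adjusted p of 0.05, where 0.129% of all probe sets were called lower and 0.0444% higher. At an unadjusted p under 0.05, 16 were lower and 3 higher, shares of 19.5% and 3.66% against 5.44% and 4.53% of all probe sets. The smallest adjusted p of a member was 0.119. On simulated arrays, where few probe sets were changed, the test called 26.3% of probe sets changed 4-fold and 0.299% of those changed 2-fold. These shares need not hold for the real arrays, but a miss says little about changes of that size.

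In 33 collagen probe sets both bitransgenic arrays lay below both wild type arrays, and in 7 both lay above. These are 40.2% and 8.54% of the members, beside 19.3% and 20.6% of all probe sets. A difference of 2-fold or more was lower for 20 members and higher for 3, shares of 24.4% and 3.66% beside 5.95% and 4.41%. Without wild type replicate 1 the 2-fold count was 11 lower, beside 6.39% of all probe sets. The count of higher 2-fold members was 5 without bitransgenic replicate 1 (6.5% of all probe sets) and 5 without bitransgenic replicate 2 (6.55%). With any 1 array left out, the counts without overlap were 42 to 53 lower and 12 to 16 higher, where 32.4% to 36.8% and 34.6% to 37.1% of all probe sets did so. The lower count was largest without wild type replicate 2, and the higher count without wild type replicate 1. Several probe sets read the same gene and are not independent. Counted over the probe set of each gene with the highest mean over all arrays, here the lead probe set, 17 of 42 genes did not overlap and were lower, and 4 were higher, beside 22.5% and 22.6% of all lead probe sets.

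The classes differed in how far their medians lay from 0. The median log2 difference, bitransgenic minus wild type, was -0.98 for the fibrillar probe sets, -0.59 for those of the basement membrane and -0.12 for the others, where all probe sets had 0.016. All differences are on the scale of log2(signal + 16), which understates those of dim probe sets. Of fibrillar probe sets 14 of 21 were lower without overlap and 1 higher. Of basement membrane probe sets 8 of 17 were lower and 0 higher, and of the others 11 of 44 were lower and 6 higher. Among all probe sets 19.3% were lower and 20.6% higher without overlap, and the share of 25.0% lower in the other classes was near that background. The classes also differed in signal, as 19 of 44 other, 18 of 21 fibrillar and 14 of 17 basement membrane probe sets reached the signal filter. Among those the medians were -0.25, -0.98 and -0.41. Of the others above the filter 31.6% were lower and 21.1% higher without overlap, beside 21.7% and 21.4% of all probe sets above it. With only the lead probe set of each gene, the medians were -0.67 for the fibrillar, -0.54 for the basement membrane and -0.135 for the other genes, so the fibrillar and basement membrane medians lay closer together. Leaving out wild type replicate 1 moved the fibrillar median to -0.48. Without bitransgenic replicate 1 the median of the others was 0.027. No difference between the classes was tested.

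**Figure D1:**
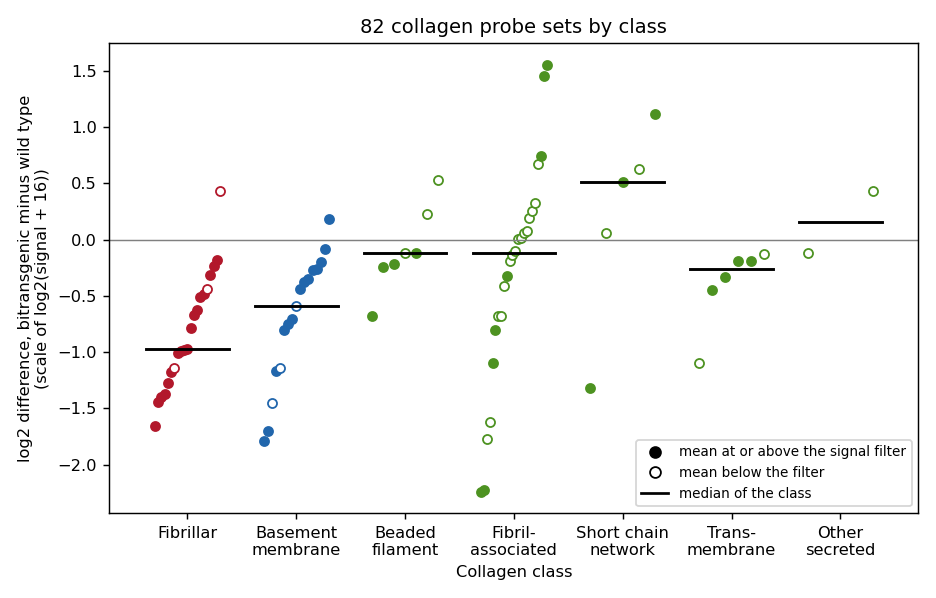
Log2 difference between bitransgenic and wild type skin (vertical axis, log2(signal + 16) scale) of all 82 collagen probe sets by class, with a point for each probe set and a line for the class median. Filled points had a mean at or above the signal filter, and open points a mean below it. Of 21 fibrillar probe sets 20 lie below 0, and the fibril-associated class runs from -2.24 to 1.55.

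Type I collagen, the main fibril protein of dermis, is a trimer of 2 alpha 1 chains and 1 alpha 2 chain. The lead probe set of Col1a1, which codes for the alpha 1 chain, read 24113 and 21767 on wild type arrays 1 and 2, against 7006 and 10036 on bitransgenic arrays 1 and 2. Both bitransgenic arrays lay far below both wild type arrays, a log2 difference of -1.45 (95% interval -2.15 to -0.74; limma adjusted p = 0.176) or 2.73-fold lower. Leaving out each array in turn gave values from -1.71 to -1.19. A further Col1a1 probe set read 13454 and 3850 on the wild type arrays and 2999 and 2546 on the bitransgenic arrays (-1.38, adjusted p = 0.492). The groups again did not overlap, but the wild type arrays differed from each other by more than the genotypes did.

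Col1a2, which codes for the alpha 2 chain, showed the same order of groups. Its lead probe set read 31253 and 27503 on the wild type arrays and 13959 and 15156 on the bitransgenic arrays (-1.01, 95% interval -1.66 to -0.36; limma adjusted p = 0.279). The signals of its next brightest probe set were 28332 and 23451 against 8311 and 11416 (-1.40, adjusted p = 0.192). Neither pair of groups overlapped. On a dimmer probe set, with 423.8 and 77.1 against 91.1 and 22.4, wild type replicate 2 lay below bitransgenic replicate 1.

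Type III collagen, a homotrimer found with type I in the same fibrils, is coded by Col3a1. The lead probe set read 37622 and 39325 on the wild type arrays and 21426 and 35384 on the bitransgenic arrays, a log2 difference of -0.48 (95% interval -1.31 to 0.35; limma adjusted p = 0.737). Bitransgenic replicate 2 was close to the wild type arrays here, and the value was -0.12 without bitransgenic replicate 1 and -0.84 without bitransgenic replicate 2. This probe set was the brightest of all on wild type replicate 1 and ranked 16 on replicate 2. The other Col3a1 probe set read 14726 and 11513 against 4199 and 6904, and gave -1.27 (95% interval -2.07 to -0.48; adjusted p = 0.269). Whether scanner saturation bears on the smaller difference of the brighter probe set was not tested.

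Type V collagen sits inside type I fibrils and limits their width. All 3 probe sets of Col5a1 lay lower in bitransgenic skin with no overlap. The lead one read 4141 and 2188 on the wild type arrays and 1348 and 1705 on the bitransgenic arrays (-0.98, 95% interval -1.85 to -0.11; limma adjusted p = 0.429). For Col5a2 the lead signals were 13462 and 8327 against 5850 and 8072 (-0.62, adjusted p = 0.636), so wild type replicate 2 and bitransgenic replicate 2 nearly met. Col5a3 read 1771 and 649.9 against 415.9 and 695.6 (-0.98, adjusted p = 0.628), and its groups overlapped. All 3 genes depended on wild type replicate 1, without which the values were -0.525 for Col5a1, -0.28 for Col5a2 and -0.26 for Col5a3. Without wild type replicate 2 they were -1.44, -0.97 and -1.69.

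**Figure D2:**
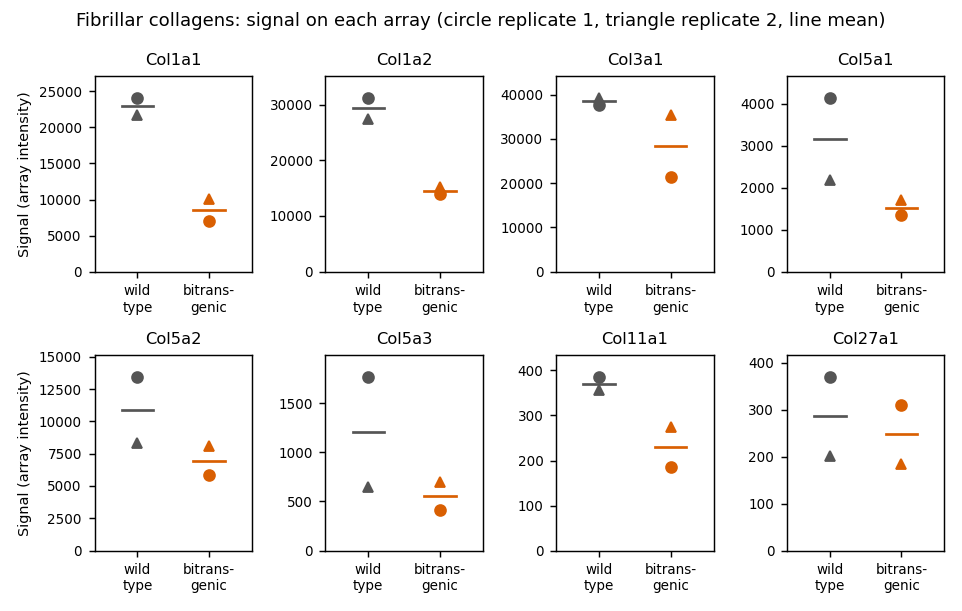
Signal in array intensity (vertical axes, linear from 0, each gene on its own scale) of the lead probe sets of 8 fibrillar collagen genes in wild type (grey) and bitransgenic skin (orange), with a circle for replicate 1, a triangle for replicate 2 and a line for the mean of 2 arrays. Col1a1 and Col1a2 separate the groups most widely, while Col5a3 and Col27a1 overlap.

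The remaining fibrillar genes are known mainly from cartilage or from low levels in other tissues. Col11a1, a chain of cartilage fibrils, read 386.2 and 355.7 on the wild type arrays and 185.9 and 274.9 on the bitransgenic arrays (-0.67, limma adjusted p = 0.617), with no overlap on this probe set and an overlap on a further one. The value was -0.41 without bitransgenic replicate 1. Col11a2 read 79.8 and 89.2 against 51.1 and 57.8 (-0.51, adjusted p = 0.785). Col27a1 read 370.5 and 201.8 against 310.7 and 185.4 (-0.18, adjusted p = 0.945), and both genotypes spanned the same range. Col2a1, the defining collagen of cartilage, was above the filter's signal of 57.0 on wild type replicate 1 alone (91.2, against 15.2 on wild type replicate 2 and 12.4 and 8.2 in bitransgenic skin). Col24a1 likewise exceeded it there alone (78.9, against 21.5 to 32.8 elsewhere).

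The upstream sequences of the type I, III and V genes are shown because these genes code for the dermal fibrils and their probe sets above the filter all had lower bitransgenic means. Of the 6 genes, 4 were matched in RefSeq promoter sequences of build GRCm38.p6, and Col1a1 and Col5a2 are not shown. Each line gives the 200 bases before the annotated start, 5′ to 3′ on the strand of the gene. Capitals mark the letters of the CCAAT box (CCAAT), the TATA box (TATAAA) and the GC box (GGGCGG, or CCGCCC where it lies on the other strand), each searched on both strands. No marked match overlaps another.
Col1a2, chr6:4505418-4505617, plus strand: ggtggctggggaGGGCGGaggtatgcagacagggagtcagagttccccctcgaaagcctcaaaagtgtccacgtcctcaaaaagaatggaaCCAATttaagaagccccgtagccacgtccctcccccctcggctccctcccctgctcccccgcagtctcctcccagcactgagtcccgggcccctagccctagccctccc
Col3a1, chr1:45311338-45311537, plus strand: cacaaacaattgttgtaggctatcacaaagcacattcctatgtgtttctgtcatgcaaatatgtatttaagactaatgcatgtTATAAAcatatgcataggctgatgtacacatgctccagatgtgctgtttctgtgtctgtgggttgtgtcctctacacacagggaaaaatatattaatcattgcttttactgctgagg
Col5a1, chr2:27886225-27886424, plus strand: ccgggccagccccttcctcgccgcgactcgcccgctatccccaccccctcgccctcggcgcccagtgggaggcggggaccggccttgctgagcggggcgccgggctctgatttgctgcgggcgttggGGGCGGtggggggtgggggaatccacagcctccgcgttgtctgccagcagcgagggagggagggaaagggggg
Col5a3, chr9:20815068-20815267, minus strand: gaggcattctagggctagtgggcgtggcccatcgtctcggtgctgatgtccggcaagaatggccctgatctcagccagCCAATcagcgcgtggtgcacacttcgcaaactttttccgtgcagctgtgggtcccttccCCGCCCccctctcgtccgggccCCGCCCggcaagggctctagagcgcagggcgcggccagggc
CCAAT was found in the windows of Col1a2 and Col5a3, and in 29.3% of the 32851 promoter windows of the same length. TATAAA was found in that of Col3a1 (9.96% of all windows). GGGCGG was found in those of Col1a2, Col5a1 and Col5a3 (31.0% of all windows), with 2 matches in Col5a3. None of the 3 motifs was found in all 4 windows. A link between motifs and signals was not tested. A match describes these letters in this window and is not a site.

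Type IV collagen has 6 chains, coded by gene pairs that lie next to each other. All 12 type IV probe sets had lower bitransgenic means, with a median of -0.76, and 7 of them had no overlap, beside 19.3% of all probe sets lower without overlap. Col4a1 and Col4a2 code for the chains of the common network. Col4a1 read 14060 and 8518 on the wild type arrays and 7637 and 9312 on the bitransgenic arrays (-0.38, 95% interval -1.16 to 0.41; limma adjusted p = 0.787). Its neighbour Col4a2 read 5998 and 4909 against 3888 and 5230 (-0.27, adjusted p = 0.822). In both genes bitransgenic replicate 2 lay above wild type replicate 2, so the groups overlapped. Leaving out each array in turn gave -0.74 to -0.014 for Col4a1 and -0.48 to -0.053 for Col4a2.

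The other type IV chains also had lower means, by amounts that varied, and no difference between the networks was tested. Col4a5, a chain of the networks of kidney and of epidermal basement membrane, read 1469 and 1429 on the wild type arrays and 798.5 and 506.5 on the bitransgenic arrays. The wild type arrays nearly coincided and both bitransgenic arrays lay well below them, a 2.25-fold lower value (log2 difference -1.17, 95% interval -1.91 to -0.43; limma adjusted p = 0.273). A second Col4a5 probe set did not overlap either (597.8 and 830.4 against 357.6 and 441.3). Its neighbour Col4a6, which pairs with alpha 5 in skin, read 188.0 and 413.5 against 160.0 and 170.5 (-0.71, adjusted p = 0.709). The wild type arrays of Col4a6 differed from each other by 1.07 on the log2 scale, more than the genotypes, and the value was -0.17 without wild type replicate 2. A second Col4a6 probe set gave -0.35, with overlap.

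Col4a4, a chain best known from the kidney glomerulus, read 312.4 and 175.5 on the wild type arrays and 83.9 and 43.2 on the bitransgenic arrays on its lead probe set. The groups did not overlap, with a log2 difference of -1.71 (95% interval -2.92 to -0.49; limma adjusted p = 0.325). A second probe set gave 346.5 and 135.3 against 33.3 and 76.6 (-1.79, adjusted p = 0.386). Its neighbour and partner chain Col4a3 was dim. Its lead probe set read 92.0 and 39.4 against 42.7 and 4.8 (-1.15, adjusted p = 0.659) and its mean was below the filter.

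The collagens that anchor the epidermis were among the least different. Col17a1, a transmembrane collagen of the hemidesmosome, read 5864 and 3738 on the wild type arrays and 3581 and 4204 on the bitransgenic arrays (-0.27, 95% interval -0.999 to 0.46; limma adjusted p = 0.839). Col7a1, the protein of anchoring fibrils, read 826.5 and 407.0 against 627.0 and 698.9 (0.18, 95% interval -0.75 to 1.12; adjusted p = 0.929). In both genes the bitransgenic arrays lay inside the wild type range or nearly so, and the sign turned on leaving out a single wild type array (0.053 for Col17a1 without replicate 1, -0.31 for Col7a1 without replicate 2). Basal keratinocyte keratins lay in the same range in both genotypes, with Krt5 at 23199 and 29838 on the wild type arrays and 19571 and 34271 on the bitransgenic arrays. Other basal keratinocyte markers went both ways. Itgb4 read 905.7 and 821.7 against 282.3 and 772.6 (-0.86), lower without overlap, while Itga3 (0.38) was higher without overlap.

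Types XV and XVIII are collagens with long side chains found at vascular and epithelial basement membranes. Col15a1 read 1414 and 777.8 on the wild type arrays and 514.9 and 734.7 on the bitransgenic arrays (-0.76, 95% interval -1.66 to 0.15; limma adjusted p = 0.597), with no overlap, and -0.33 without wild type replicate 1. Col18a1, whose carboxy-terminal fragment is endostatin, read 2470 and 2610 against 1977 and 2914 (-0.080, adjusted p = 0.966). Its wild type arrays lay between the bitransgenic arrays.

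**Figure D3:**
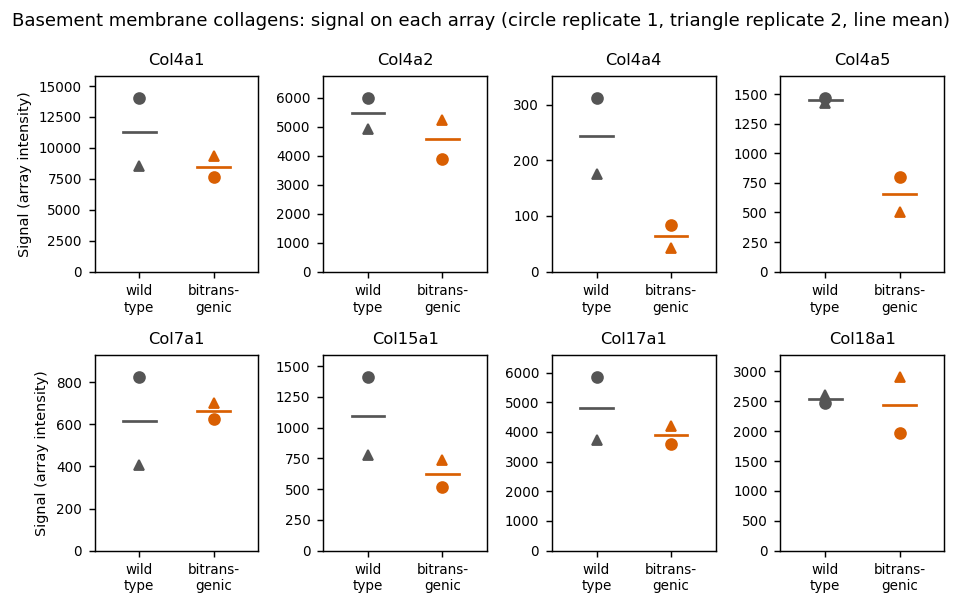
Signal in array intensity (vertical axes, linear from 0, each gene on its own scale) of the lead probe sets of 8 basement membrane collagen genes, with a circle for replicate 1, a triangle for replicate 2 and a line for the mean of 2 arrays. Col4a4 and Col4a5 separate wild type (grey) from bitransgenic skin (orange), while Col4a1, Col4a2, Col7a1, Col17a1 and Col18a1 overlap.

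The fibril-associated collagens held both the lowest and the highest differences of all members. Col14a1, a collagen of fibril surfaces in dermis and tendon, read 4488 and 2073 on the wild type arrays and 476.2 and 854.3 on the bitransgenic arrays. Both bitransgenic arrays lay well below the lower wild type array, a 4.69-fold lower value (log2 difference -2.23, 95% interval -3.33 to -1.13; limma adjusted p = 0.18). A second probe set read 1328 and 884.4 against 166.3 and 280.7 (-2.24, 95% interval -3.15 to -1.33; adjusted p = 0.119). The value of the lead probe set ran from -2.78 to -1.68 when each array was left out in turn. Another Col14a1 probe set was dim on all arrays, from 2.9 to 10.4.

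Col12a1, a close relative of Col14a1 that also binds fibrils, lay the other way. Its lead probe set read 858.9 and 1010 on the wild type arrays and 2449 and 2698 on the bitransgenic arrays, 2.73-fold higher (log2 difference 1.45, 95% interval 0.85 to 2.05; limma adjusted p = 0.125). The arrays of each genotype lay close together and far from the other genotype. A further probe set read 344.8 and 459.2 against 601.8 and 758.5 (0.74, adjusted p = 0.505), also with no overlap. Another 2 Col12a1 probe sets had no signal above 37.8 on any array. The 95% intervals of the lead probe sets of Col12a1 and Col14a1 did not overlap, but the difference between the genes was not tested.

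Col16a1, a fibril-associated collagen of dermis near the epidermis, read 3086 and 2664 on the wild type arrays and 1162 and 1518 on the bitransgenic arrays, 2.15-fold lower (-1.10, 95% interval -1.74 to -0.47; limma adjusted p = 0.238). Its groups did not overlap. Type IX collagen, a partner of cartilage fibrils, has 3 chains, each of them dim here. Col9a1 read 49.9 and 13.7 against 108.5 and 119.4 on its lead probe set (1.55, 95% interval 0.24 to 2.87; adjusted p = 0.409). A second Col9a1 probe set, with 63.3 and 51.9 against 65.6 and 41.5, showed no such gap, and the lead value was 0.98 without wild type replicate 2. Col9a3 read 169.9 and 26.9 against 11.9 and 14.3 (-1.62, adjusted p = 0.542), so its wild type level rested on replicate 1. Col20a1 had means of 86.6 ± 19.0 (SD, n = 2) in wild type and 65.35 ± 6.72 (SD, n = 2) in bitransgenic skin (-0.33, limma adjusted p = 0.878).

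Type VI collagen, the beaded microfilament around fibroblasts, muscle fibres and fat cells, has its main chains coded by Col6a1, Col6a2 and Col6a3. Col6a1 read 6584 and 3703 on the wild type arrays and 3430 and 5036 on the bitransgenic arrays (-0.25, 95% interval -1.13 to 0.63; limma adjusted p = 0.887). Its neighbour Col6a2 read 9049 and 4907 against 5372 and 7037 (-0.12, adjusted p = 0.959). Col6a3 read 9652 and 5014 against 3569 and 5263 (-0.68, adjusted p = 0.659). All 3 genes overlapped between genotypes, and in each the wild type arrays differed by more than the genotypes. For Col6a1 and Col6a2 the sign turned without wild type replicate 1, to 0.17 and 0.32, and without bitransgenic replicate 1, to 0.028 and 0.078. That of Col6a3 was -0.21 without wild type replicate 1.

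Type VIII collagen, a short chain network former of vessel walls and the cornea, has 2 chains, and they lay in opposite directions. Col8a1 read 384.6 and 188.6 on the wild type arrays and 566.4 and 644.0 on the bitransgenic arrays on its lead probe set (1.11, 95% interval 0.15 to 2.08; limma adjusted p = 0.419). Col8a2 read 362.1 and 255.5 against 87.7 and 143.6 (-1.32, 95% interval -2.33 to -0.30; adjusted p = 0.363). Neither gene's groups overlapped there, while a second Col8a1 probe set (174.0 and 180.0 against 163.1 and 408.7) did overlap. The lead value of Col8a1 was 0.63 without wild type replicate 2. Among the transmembrane collagens, Col13a1 read 90.3 and 119.7 against 70.7 and 112.2 (-0.19, adjusted p = 0.944) and Col23a1 read 263.5 and 138.7 against 145.4 and 153.1 (-0.33, adjusted p = 0.87). Both overlapped.

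**Figure D4:**
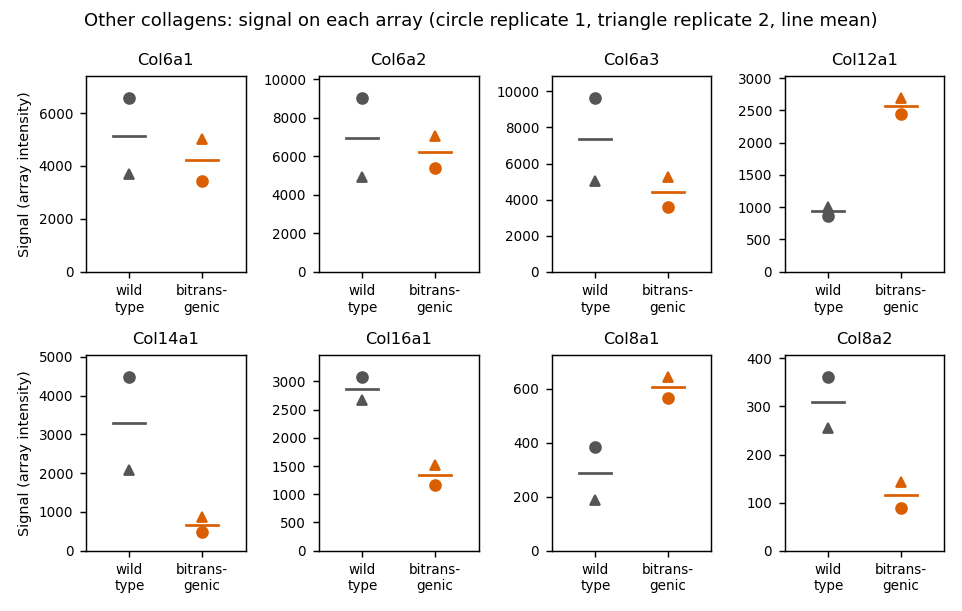
Signal in array intensity (vertical axes, linear from 0, each gene on its own scale) of the lead probe sets of 8 collagen genes of the beaded filament, fibril-associated and short chain classes, with a circle for replicate 1, a triangle for replicate 2 and a line for the mean of 2 arrays. Col12a1 and Col8a1 are higher in both bitransgenic (orange) than in both wild type arrays (grey), Col14a1, Col16a1 and Col8a2 are lower, and the type VI genes overlap.

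The mean over all arrays reached the filter for 51 of the 82 probe sets, and the lead probe sets of 30 of the 42 genes did so. The other 31 had differences from -1.77 to 0.67. Genes whose lead probe set lay below it were Col2a1, Col24a1, Col4a3, Col6a4, Col6a5, Col9a2, Col9a3, Col10a1, Col19a1, Col22a1, Col25a1 and Col26a1. Col10a1, the collagen of hypertrophic cartilage, had no signal above 7.7 on any array.

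A gap between the wild type arrays ran through the collagen genes. Of the 51 probe sets above the filter, wild type replicate 2 was below replicate 1 in 40, and bitransgenic replicate 2 was above replicate 1 in 43. In 27 of the 51 the gap between wild type arrays was larger than the difference between genotypes. These were 9 of 18 fibrillar, 8 of 14 basement membrane and 10 of 19 other probe sets. A gap of single arrays varies more than a difference of means, and the share over all probe sets was not taken. The count thus does not set collagens apart from other genes. For the lead probe sets of Col1a1, Col1a2, Col3a1, Col4a5, Col12a1 and Col16a1 the wild type gap was between 0.040 and 0.23 in size on the log2 scale. The wild type arrays were thus close on these probe sets. The bitransgenic arrays of the Col3a1 lead probe set differed by 0.72, more than the genotypes did (-0.48). Further probe sets of Col1a1 and Col1a2 had wild type gaps of -1.80 and -2.24.

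**Figure D5:**
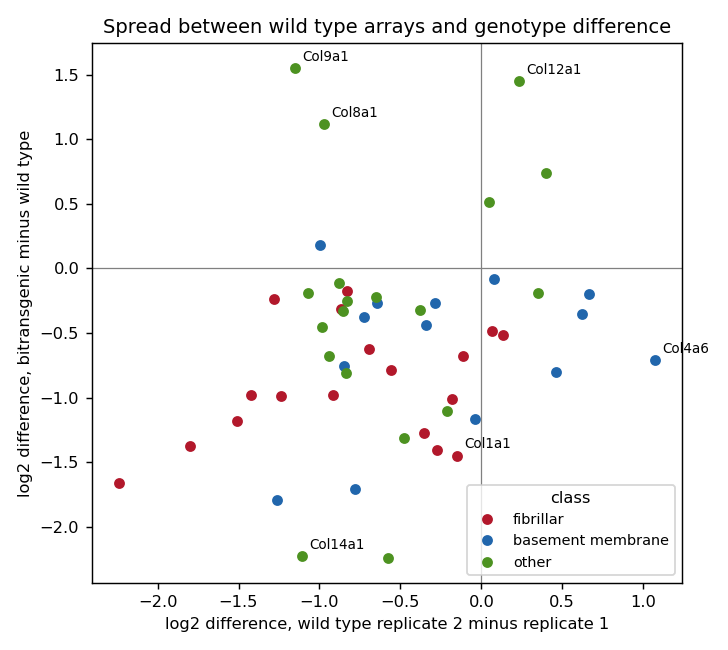
Log2 difference between bitransgenic and wild type skin (vertical axis) against wild type replicate 2 minus replicate 1 (horizontal axis), both on the log2(signal + 16) scale, for the 51 collagen probe sets above the filter, coloured by class. Points left of 0, 40 of 51, were lower on wild type replicate 2, and the lead probe sets of Col12a1 and Col1a1 lie at 0.23 and -0.15 on the horizontal axis, while the other Col1a1 probe set lies at -1.80. The axes share the wild type arrays, so the plot is a description.

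Genes that make, fold, cut and cross-link collagen were read from a list of 36, of which 32 genes with 57 probe sets had a symbol of their own. By limma 0 of the 57 probe sets passed the adjusted threshold, where 0.129% of all probe sets were called lower and 0.0444% higher, and 14 were lower and 0 higher at an unadjusted p under 0.05 (24.6% lower beside 5.44% of all). The median difference was -0.18 beside 0.016 for all probe sets. Pcolce2 and Pcolce enhance the removal of the carboxy-terminal propeptide of fibrillar procollagens. Pcolce2 read 2675 and 1170 on the wild type arrays and 440.2 and 505.4 on the bitransgenic arrays (-1.87, 95% interval -2.88 to -0.86; adjusted p = 0.214). Serpinf1, a secreted serpin that binds collagen, read 6425 and 3889 against 1718 and 2252 (-1.34, adjusted p = 0.247).

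Serpinh1, the collagen chaperone HSP47, read 5798 and 5078 on the wild type arrays and 2287 and 3262 on the bitransgenic arrays (-0.99, 95% interval -1.66 to -0.32; limma adjusted p = 0.305). Fkbp14, a prolyl isomerase of the endoplasmic reticulum, read 1351 and 613.8 against 335.8 and 362.9 (-1.35, adjusted p = 0.345). Creb3l1, a transcription factor of secretory cells that acts on type I collagen genes in bone, read 815.6 and 470.0 against 144.1 and 327.8 (-1.44, adjusted p = 0.385). These 5 genes were picked by their p, so their lack of overlap is no finding. Over the lead probe sets of all 32 genes, 13 were lower and 2 higher without overlap, beside 22.5% and 22.6% of all lead probe sets. Without wild type replicate 1 the value of Fkbp14 was -0.79, and without bitransgenic replicate 1 that of Creb3l1 was -0.89. Of the 32 lead probe sets, 25 had lower means and 7 higher, a share of 78.1% lower beside 49.0% of all lead probe sets. Among other enzymes of the list, P4ha2 (-1.58), Tll1 (-1.45) and Plod2 (-0.97) were also lower without overlap. Some others lay nearer to 0 or higher, given here as examples. The prolyl hydroxylase subunit P4hb, which is also a general disulfide isomerase, read 9693 and 11937 against 12715 and 12960 (0.26, adjusted p = 0.822). The cyclophilin Ppib read 12227 and 13481 against 11802 and 15162 (0.059, adjusted p = 0.976). Lox, which cross-links collagen and elastin, had a log2 difference of -0.058 and Colgalt1, which adds galactose to collagen, 0.088. Plod3, a lysyl hydroxylase, read 766.8 and 1026 against 1388 and 1152 (0.50), higher without overlap.

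Markers of cell types in skin were read beside the collagens. Summed over 12 fibroblast markers, signals were 76752 and 54956 on the wild type arrays and 38429 and 48652 on the bitransgenic arrays, and 8 of the 12 were lower with no overlap, beside 22.5% of all lead probe sets. These included Lum and Dcn, which code for proteoglycans of collagen fibrils, and Pdgfra at a log2 difference of -0.35, while Pdgfrb, Thy1, Fbln1 and Vim had values from -0.027 to 0.17. Summed over 11 skeletal muscle markers, signals were 210795 and 80606 against 19676 and 23422. For 7 fat cell markers the sums were 70590 and 61641 against 31774 and 40374. For 11 hair matrix and shaft markers they were 92816 and 155742 against 1465 and 10778. Sums over 11 endothelial and mural markers overlapped, at 20654 and 15510 against 18581 and 21671. Single members went both ways, with Cspg4 at -1.05 and Rgs5 at 0.53. Of the 11, 3 were lower and 2 higher without overlap, beside 22.5% and 22.6% of all lead probe sets. Sums over 8 basal keratinocyte markers were 58985 and 68895 against 56882 and 84935, and those over 9 immune markers 20260 and 12112 against 21112 and 36355. Of the immune markers 6 were higher and 0 lower without overlap, beside 22.6% and 22.5% of all lead probe sets. Cd79a, which is among the 6, stayed below the filter's signal on every array. For 5 Schwann cell markers they were 20366 and 15251 against 11086 and 14266. Among these Egr2 was higher without overlap (3426 and 3311 against 7063 and 6949), and the other 4, with Mbp at -2.03 and Pmp22 at -1.18, were lower without overlap. For 6 melanocyte markers the sums were 5387 and 17924 against 2576 and 2685. Of these, Mitf read 3464 and 2398 against 697.9 and 615.3. The other melanocyte markers were high on wild type replicate 2 alone, as Pmel with 328.2 and 3437 against 323.4 and 319.1. For 7 cell division markers the sums were 4026 and 10394 against 11835 and 14402, and 3 of the 7 were higher and 0 lower without overlap. The sums of 10 cartilage and tendon markers were 6746 and 3720 against 1597 and 1805. Among them Tnmd read 3350 and 1012 against 381.6 and 359.4 (-2.27). Fmod read 809.1 and 681.5 against 105.5 and 139.6 (-2.46), while Comp had a log2 difference of 0.24. Of the 10 markers, Matn1, Matn3, Chad and Hapln1 stayed below the filter's signal on every array. The cartilage genes Acan (69.6 to 132.1), Comp (88.7 to 141.7) and Sox9 (792.4 to 2171), the last also known from hair follicles, were above it on every array. The part of these cell types in the collagen values was not tested.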

How the data were processed

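Total RNA from the skin of the back was hybridised to single-colour Affymetrix arrays, 2 per genotype. The authors deposited 1 signal per probe set and array, which is a linear intensity. MAS5 and affy are named per the submitters' processing notes, without version or role. The mean of each array, with 2% of probe sets trimmed at each end, was 500.0, so arrays had been scaled to a common level and values are relative within an array. Array medians ran from 97.5 to 112.8. No detection calls were used. Of 45101 probe sets 64 were controls, 34945 had 1 symbol, 932 several and 9160 none in the platform annotation. RefSeq's table for GRCm38.p6 matched 34741 of those with 1 symbol by Entrez identifier and changed 0 symbols.

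The genotypes were compared on log2(signal + 16) by limma 3.58.1 (R 4.3.3; eBayes with an intensity trend) over all 45037 probe sets that were not controls, with Benjamini-Hochberg adjustment. Residual degrees of freedom were 2, to which the shared variance estimate added 4.32. The signal filter used in the text is the 40th percentile of mean log2 values, 6.19 or a signal of 57.0. It took no part in the test. Lead probe sets at or above it, any called collagen probe set, and the 5 synthesis and processing genes with the smallest p of a lead probe set were to be named with their values, as were second probe sets over 1 away from the lead on the log2 scale where both lay above the filter, of which there were none. Other probe sets, Col2a1, Col24a1, Col4a3, Col9a3 and Col10a1 were chosen after their values were seen. So were P4ha2, Tll1, Plod2, P4hb, Ppib, Lox, Colgalt1, Plod3, Krt5 and the marker genes. The members, classes and lists were chosen with earlier results of these data known. Per the labels, arrays within a genotype are biological replicates. The p-values thus rest on the spread between animals, which 1 array per animal does not separate from technical spread. They also use the variance estimate shared over probe sets. The test was checked on simulated arrays with independent probe sets, of which few were changed. Other pseudocounts, filters, normalizations, the replicate number as a block and leaving out each array were tried as alternatives.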

Additional observations from a re-analysis of the deposited data

How the results depend on the processing

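No collagen probe set and no synthesis or processing probe set was called by limma in either direction under any of the 13 alternatives, except Col12a1 with replicate number as a block (1 collagen probe set higher, log2 difference 1.45, adjusted p = 0.0468), where 0.306% of all probe sets were called higher. Replicate numbers are shared by label only. The gap from replicate 1 to 2 correlated between genotypes with r = 0.336 over 27022 probe sets, and 2 pairs cannot show that the numbers pair the animals. Calls over all probe sets, 20 higher and 58 lower, were 138 and 300 with the block, 56 and 150 with the filter at the 40th percentile, 52 and 132 with 1 lead probe set a gene, and 0 to 13 and 0 to 80 with an array left out (both 0 without wild type replicate 1). The medians of all collagen and of fibrillar probe sets kept their sign, with -0.60 to -0.26 and -1.11 to -0.48 when 1 array was left out. The basement membrane median was -0.75 with a pseudocount of 1, -0.43 with 64, -0.41 with the filter, -0.51 with equal array medians, -0.54 with lead probe sets and -0.65 without probe sets ending in _x_at or _s_at, and -0.65 to -0.43 with an array left out. That of the other classes was -0.25 with the filter and -0.25 to 0.027 with an array left out. Counts with an array left out, an alternative chosen after seeing the data, were 11 to 29 lower and 2 to 5 higher by 2-fold or more, and 42 to 53 lower and 12 to 16 higher without overlap, which is looser with 3 arrays (32.4% to 36.8% of all probe sets lower). Of 455 values of the 35 named genes, 11 changed sign, all on leaving out an array and none of them called: Col17a1 (range -0.59 to 0.053), Col18a1 (-0.36 to 0.20), Col7a1 (-0.31 to 0.68), Col27a1 (-0.59 to 0.24), Col6a1 (-0.66 to 0.17), Col6a2 (-0.56 to 0.32), Col13a1 (-0.47 to 0.094) and Col23a1 (-0.76 to 0.095). The cause was not tested. The smallest signals, within a few units of 0, limit the dim members most.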

Other observations

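Each further collagen probe set above the filter was set beside the lead probe set of its gene. In 17 of these 21 pairs the probe sets differed more in the gap between the 2 wild type arrays, a difference of single arrays, than in the genotype difference, a difference of means. For Col1a1, wild type replicate 2 minus replicate 1 was -0.15 on the lead probe set and -1.80 on the other, while the genotype differences were -1.45 and -1.38. For Col1a2 the gap was -0.18 on the lead probe set and -2.24 on the dimmest, with genotype differences of -1.01 and -1.66. The other bright Col1a2 probe set went the other way, with a gap of -0.27 and a genotype difference of -1.40. For Col8a1 the gap was -0.97 and 0.045, with genotype differences of 1.11 and 0.52. The Col3a1 probe sets also went the other way, with gaps of 0.064 and -0.355 and genotype differences of -0.48 and -1.27, as did single pairs of Col12a1 and Col20a1.

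Collagen genes that are neighbours in the RefSeq annotation had these pairs of lead differences. They were -1.71 and -1.15 for Col4a4 and Col4a3, -0.71 and -1.17 for Col4a6 and Col4a5, -0.38 and -0.27 for Col4a1 and Col4a2, -0.48 and -0.62 for Col3a1 and Col5a2, and -0.12 and -0.25 for Col6a2 and Col6a1. Col9a1 and Col19a1 had 1.55 and -0.19, and Col6a5 and Col6a4 had 0.23 and -0.12, with at least 1 dim gene in each of these pairs.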
